A study of Homo sapiens with 6 samples.

Results

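The proteasome genes measured here were the 48 genes, of 23284 gene symbols in the expression tables, whose symbols begin with PSMA to PSMG and end in a number. They were chosen by name alone, and each was represented by 1 record, that with the highest mean level over the samples. They comprised 8 alpha subunits (PSMA) and 8 beta subunits (PSMB) of the barrel-shaped core, and 3 further beta subunits of the immunoproteasome (PSMB8, PSMB9 and PSMB10). The regulatory cap gave 6 ATPases (PSMC) and 14 PSMD genes, which encode non-ATPase subunits or, as with PSMD5, chaperones of cap assembly. The rest were 4 activators (PSME), the inhibitor PSMF1 and 4 assembly chaperones (PSMG). RNA came from GM12873, an established line of B lymphocytes transformed with Epstein-Barr virus. In the control group, 3 samples of untreated cells went straight into TRIzol after washing. In the lyophilized group, 3 samples of an equal number of cells were freeze-dried in PBS with 0.1 M trehalose, kept dry at room temperature for 2 weeks and only then dissolved in TRIzol. The study lists its samples as pairs, and each control is paired here with the lyophilized sample of the same replicate number. All 6 samples are from 1 cell line, so the spread between them covers cultures of this line and not donors.

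The proteasome is the protease complex that degrades proteins tagged with ubiquitin. Its core is a stack of rings in which the beta subunits PSMB5, PSMB6 and PSMB7 carry the active sites, while the alpha rings gate the entry. The cap recognizes ubiquitin chains, removes them and unfolds the substrate with its ring of ATPases. In lymphoid cells, and in other cells exposed to interferon-gamma, PSMB8, PSMB9 and PSMB10 are built into new cores in place of PSMB5, PSMB6 and PSMB7, and the resulting immunoproteasome cuts peptides that suit presentation on MHC class I. PSME1 and PSME2 form an interferon-inducible activator that binds the core in place of the cap.

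Expression is given as FPKM (fragments per kilobase of transcript, scaled to the mapped reads of the sample), a level per length that can be compared between genes. The libraries differed in depth: taking control 1 as 1, the relative depth read from the size of the lowest FPKM steps ran from 1 to 1.895, and lyophilized 1 was the deepest. Summed over 10 B-lymphoblastoid markers, the level was between 4608 and 6325 FPKM in every sample, while the markers of T cells, monocytes, erythroid cells, fibroblasts and epithelial cells summed to at most 1.48 FPKM each, so the RNA matched its labelled cell type. Reads that mapped to several places had been discarded by the authors. Of the stretches of 75 bases in the PSMC1 transcript, 32.9% recur elsewhere in the genome, followed by PSMC6 (18.1%), PSMA6 (14.2%), PSMD4 (11.9%), PSME2 (7.93%), PSMD2 (4.69%) and PSMA2 (1.25%), and the absolute levels of these genes are uncertain. The library kit does not mark the strand, and 83.2% of the exonic bases of PSMC1 also lie in exons of NRDE2 on the opposite strand. Exons of read-through or neighboring transcripts on the same strand cover 94.6% of PSMA2, 81.4% of PSMA6, 67.0% of PSMA1 and 38.3% of PSMB10.

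Of the 48 genes, 46 passed the filter on low values, a group mean over 1 FPKM in either group, and were tested. The exceptions are the tissue-restricted variants of the core. PSMA8, the alpha subunit of the testis proteasome, was measured at 0.0490, 0.0356 and 0.0296 FPKM in controls 1 to 3, against 0.0258, 0 and 0.0641 FPKM in lyophilized samples 1 to 3. PSMB11, the beta subunit of thymic epithelium, was 0 in every sample but control 3, at 0.0261 FPKM. PSMB8 and PSMB9, which both lie in the MHC region of chromosome 6, are each listed at 8 loci, of which 7 are on alternate haplotype contigs and at 0 in all samples.

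The other 46 genes spanned a wide range of levels. The highest was PSME1, with 402, 399 and 370 FPKM in controls 1 to 3, against 385, 412 and 359 FPKM in lyophilized samples 1 to 3. Its mean of 391 ± 17.4 FPKM in the controls (SD, n = 3) stood above the next gene, the core subunit PSMB4 at 295 ± 30.1 FPKM, by more than the sum of both SDs. The lowest tested gene was PSMD5, a chaperone of cap assembly, with 6.94, 12.7 and 11.0 FPKM in the controls, against 8.45, 11.6 and 11.2 FPKM in the lyophilized samples. Between these, mean levels in the controls fell almost continuously: of 45 neighbors in the order of levels, 3 were separated by more than the sum of their SDs. Along with PSME1 over PSMB4, these were PSMB8 over PSMB1 (265 ± 9.76 against 228 ± 26.6 FPKM) and PSMB6 over PSMB5 (117 ± 12.7 against 95.8 ± 6.96 FPKM).

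The subunits of the same ring, which are present in equal number in the assembled particle, were not measured at equal RNA levels. Alpha subunits ran from 37.2 FPKM (PSMA5) to 213 FPKM (PSMA7) in the control means, and constitutive beta subunits from 37.6 FPKM (PSMB2) to PSMB4. ATPases were lower, from 12.6 FPKM (PSMC6) to 89.2 FPKM (PSMC5). The PSMD genes ran from PSMD5, the chaperone of cap assembly, at 10.2 FPKM to PSMD8 at 93.8 FPKM. The medians over the genes tested were 141 FPKM for the alpha ring, 149 FPKM for the constitutive beta ring and 46.4 FPKM for the ATPases. For the PSMD genes, chaperones of cap assembly included, the median was 59.6 FPKM. PSMF1, which inhibits the core, was measured at 24.7, 25.2 and 24.3 FPKM in the controls, against 22.5, 24.8 and 23.9 FPKM in the lyophilized samples. The PSMG assembly chaperones lay between 24.2 FPKM (PSMG4) and 62.2 FPKM (PSMG2).

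**Figure D1:**
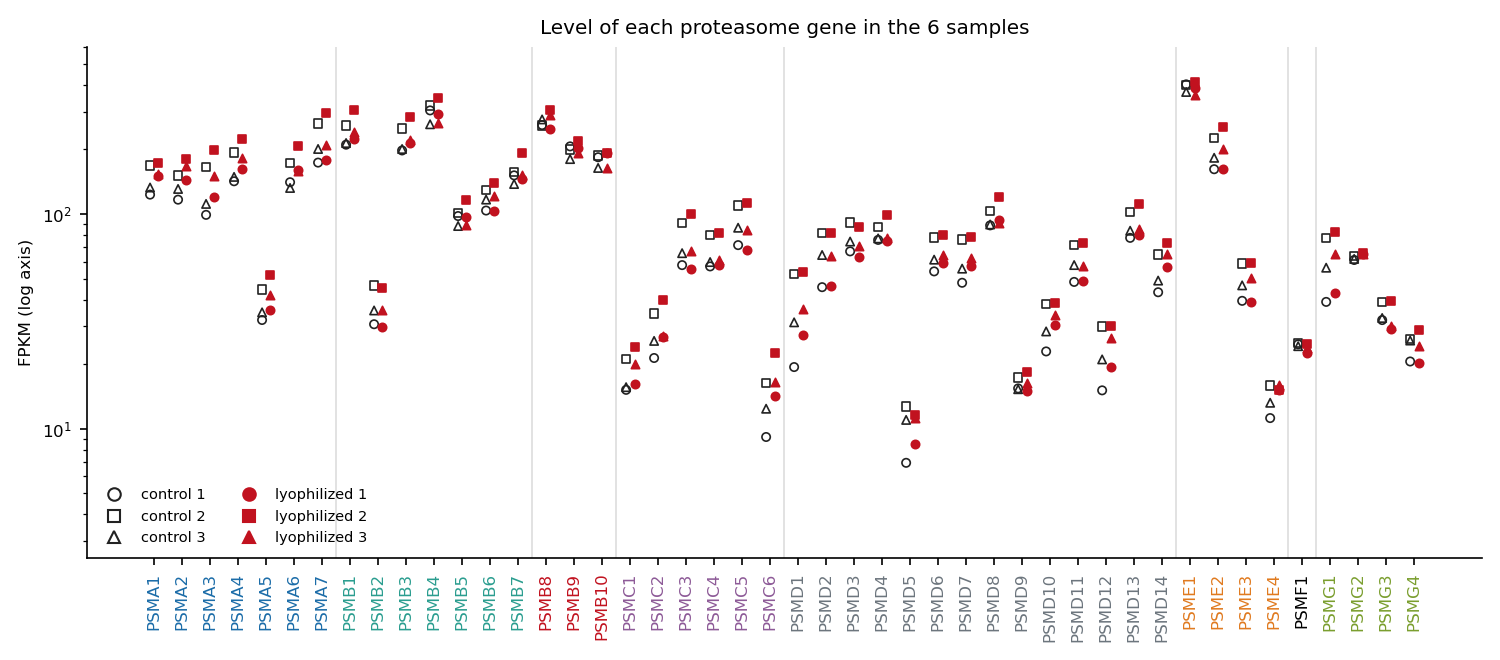
FPKM (log axis) of the 46 tested proteasome genes, grouped by role and colored on the x axis by class, with open symbols for the 3 controls, filled red symbols for the 3 lyophilized samples and the symbol shape for the pair. PSME1 is highest and PSMD5 lowest, and within most genes the squares of pair 2 lie above the circles of pair 1 in both groups.

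The immunoproteasome subunits exceeded the constitutive subunits that they replace at the same position in the core. PSMB8 replaces PSMB5, whose activity cuts after hydrophobic residues. PSMB8 (chr6:32808494-32812712, hg19) was measured at 260, 258 and 276 FPKM in controls 1 to 3, against 250, 306 and 289 FPKM in lyophilized samples 1 to 3. PSMB5 (chr14:23495060-23504429) was measured at 97.9, 101 and 88.0 FPKM in the controls, against 96.5, 116 and 89.4 FPKM in the lyophilized samples. PSMB8 was therefore above PSMB5 in every sample, and the ranges did not touch.

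PSMB9 takes the place of PSMB6, the subunit that cuts after acidic residues. PSMB9 (chr6:32821938-32827628) reached 207, 200 and 180 FPKM in the controls, against 204, 218 and 194 FPKM in the lyophilized samples. PSMB6 (chr17:4699457-4701790) reached 104, 129 and 117 FPKM in the controls, against 103, 140 and 122 FPKM in the lyophilized samples, again below its counterpart in every sample.

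PSMB10 takes the place of PSMB7, which cuts after basic residues, and here the levels were close. PSMB10 (chr16:67968407-67970780) was measured at 184, 187 and 164 FPKM in the controls, against 193, 192 and 163 FPKM in the lyophilized samples, against 151, 157 and 138 FPKM and then 146, 193 and 152 FPKM for PSMB7 (chr9:127115744-127177721). In lyophilized 2 alone PSMB7 was marginally the higher of these genes.

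The ratio of PSMB8 to PSMB5 was 2.65, 2.55 and 3.14 in controls 1 to 3, against 2.59, 2.63 and 3.24 in lyophilized samples 1 to 3. The ratio of PSMB9 to PSMB6 was 1.99, 1.54 and 1.54 in the controls, against 1.97, 1.56 and 1.59 in the lyophilized samples. For PSMB10 to PSMB7 the controls were at 1.21, 1.19 and 1.19 and the lyophilized samples at 1.32, 0.997 and 1.07. The differences between the groups in these log2 ratios, lyophilized minus control, were 0.02, 0.01 and -0.09, and the groups overlapped for each ratio. An exact permutation test of 3 against 3, two-sided, gave p = 0.7, 0.6 and 0.5, and 0.7 for each after Benjamini-Hochberg adjustment over the 3 ratios, where 0.1 is the smallest p that this test can give. With the pairs kept together, an exact sign-flip permutation test gave p = 0.5 for each, and 3 pairs cannot go below 0.25. Neither test can pass 0.05 with this number of samples, and a p above it does not show that the ratios were alike.

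**Figure D2:**
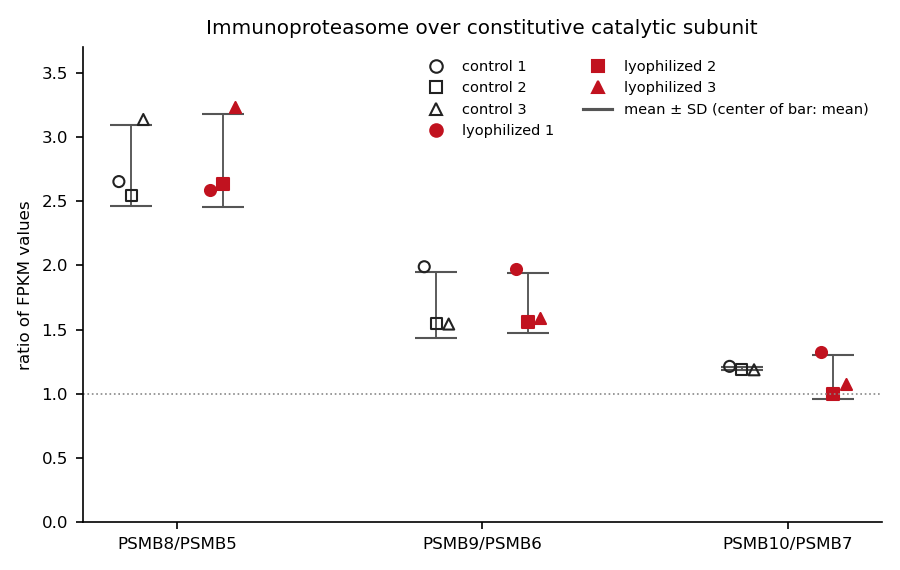
Ratio of the FPKM of each immunoproteasome catalytic subunit to that of the constitutive subunit at the same position, by sample, with bars of mean ± SD (n = 3). PSMB8/PSMB5 lies between 2.55 and 3.24 and PSMB9/PSMB6 between 1.54 and 1.99 in all samples, while PSMB10/PSMB7 lies between 0.997 and 1.32, and symbols of the same pair are alike in both groups for the first 2 ratios.

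The central comparison asked whether freeze-drying and storage altered the levels of these transcripts. With the condition alone in the model, 0 of the 46 proteasome genes passed an adjusted p of 0.05 (limma, Benjamini-Hochberg over all 11134 genes tested), where 0.575% of all genes did, and 0 had an unadjusted p under 0.05, where 14.1% of all genes did. The lowest adjusted p of the 46 from limma was 0.382, for PSMA2. On the log2 scale of FPKM plus 0.1, the fold changes (lyophilized over control) ran from -0.08 (PSMG3, an assembly chaperone) to 0.50 (PSMC6), with a median of 0.08 beside 0.04 over all genes tested, and 39 of the 46 were above 0, against 56.3% of all genes. Within pairs 1, 2 and 3, 29, 40 and 37 of the 46 were higher in the lyophilized sample, against 55.3%, 50.7% and 54.4% of all genes. Bulk FPKM values are shares of all RNA sequenced, so a change in the total RNA of a sample would not show in them.

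The groups overlapped for nearly all members. In PSMG2, a chaperone that pairs with PSMG1 in the assembly of the alpha ring, the controls were at 61.1, 63.6 and 61.8 FPKM and the lyophilized samples at 65.1, 65.6 and 65.3 FPKM. It was the only member whose groups did not overlap, against 9.66% of all genes with every lyophilized sample above every control. The lyophilized sample was higher in all 3 pairs for 24 members, or 52.2%, against 33.4% of all genes, and lower in all 3 pairs for PSMD3 and PSMF1, against 28.8% of all genes.

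With the pairs as a block in the model, which removes differences shared by a control and its paired sample, 13 of the 46 genes were higher in the lyophilized samples and 0 were lower (limma, adjusted p under 0.05), beside 15.9% of all genes higher and 14.9% lower. The higher share among the members was 28.3%. The median standard error of the members' log2 fold changes was 0.17 without the block and 0.05 with it. Those called were 6 of 7 alpha subunits tested (PSMA1 to PSMA6), 2 of 7 constitutive beta subunits (PSMB1 and PSMB3), 2 of 6 ATPases (PSMC2 and PSMC6) and 3 of 14 PSMD genes (PSMD1, PSMD12 and PSMD14). None of the 3 immunoproteasome subunits, 4 activators and 4 assembly chaperones was called, nor was the inhibitor. Of the 13, 5 were also called when each pair in turn was left out (PSMA2, PSMA3, PSMA6, PSMC6 and PSMD14). The share of all genes called in every one of these fits is not given here. Without pair 1, 10 members were called higher, beside 9.03% of all genes. Without pair 2, 18 were, beside 27.7% of all genes, and without pair 3, 5 were, beside 4.26%. The fits without a pair hold few samples for the terms of the model. Their calls therefore lean on the variance pooled over all genes.

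The largest fold change belonged to PSMC6, an ATPase of the cap (chr14:53173896-53194716). It was measured at 9.16, 16.4 and 12.4 FPKM in controls 1 to 3, against 14.2, 22.6 and 16.5 FPKM in lyophilized samples 1 to 3. The lyophilized sample was the higher in each pair, yet the groups overlapped, because control 2 lay above lyophilized 1. Its log2 fold change was 0.50 ± 0.24 (SE), with an adjusted p from limma of 0.397 without the block and 0.00225 with it.

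Next in size was PSMA3, an alpha subunit (chr14:58711523-58738727), at 99.2, 165 and 112 FPKM in the controls, against 121, 199 and 151 FPKM in the lyophilized samples. Its log2 fold change was 0.33 ± 0.24 (SE), with an adjusted p from limma of 0.546 without the block and 0.00239 with it. PSMD14, the deubiquitinase that strips ubiquitin chains from substrates at the cap (chr2:162164786-162268228), was measured at 43.2, 64.8 and 49.0 FPKM in the controls, against 56.5, 73.3 and 64.9 FPKM in the lyophilized samples. Its log2 fold change was 0.32 ± 0.17 (SE). PSMA2, another alpha subunit (chr7:42956462-42971805), was measured at 117, 151 and 131 FPKM in the controls, against 144, 180 and 168 FPKM in the lyophilized samples, a log2 fold change of 0.31 ± 0.14 (SE). For PSMA3 and PSMD14 the difference within each pair was smaller than the range among the controls, and for PSMA2 it was smaller in pairs 1 and 2.

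PSMD1, the large scaffold subunit of the cap base (chr2:231921578-232037540), was measured at 19.4, 52.5 and 31.3 FPKM in the controls, against 27.5, 54.0 and 36.0 FPKM in the lyophilized samples. Its log2 fold change of 0.25 had an SE of 0.37 without the block and 0.08 with it, and the adjusted p from limma with the block was 0.0481. The difference was widest in pair 1, and the fold change turned to -0.11 when control 1 was left out and to -0.01 when lyophilized 2 was left out, both without the block.

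Among the activators, PSME2 was measured at 162, 226 and 183 FPKM in the controls, against 163, 254 and 202 FPKM in the lyophilized samples, a log2 fold change of 0.11 ± 0.19 (SE), and PSME1 is given above. PSME3, the nuclear activator, was measured at 39.4, 58.8 and 46.5 FPKM in the controls, against 39.0, 58.9 and 50.2 FPKM in the lyophilized samples. PSME4, which serves the proteasome in histone degradation, was measured at 11.2, 15.9 and 13.2 FPKM in the controls, against 15.1, 15.2 and 15.96 FPKM in the lyophilized samples. The log2 fold changes of PSME1, PSME3, PSME4 and PSMF1 were -0.02, 0.03, 0.21 and -0.06, and none passed the test with or without the block.

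**Figure D3:**
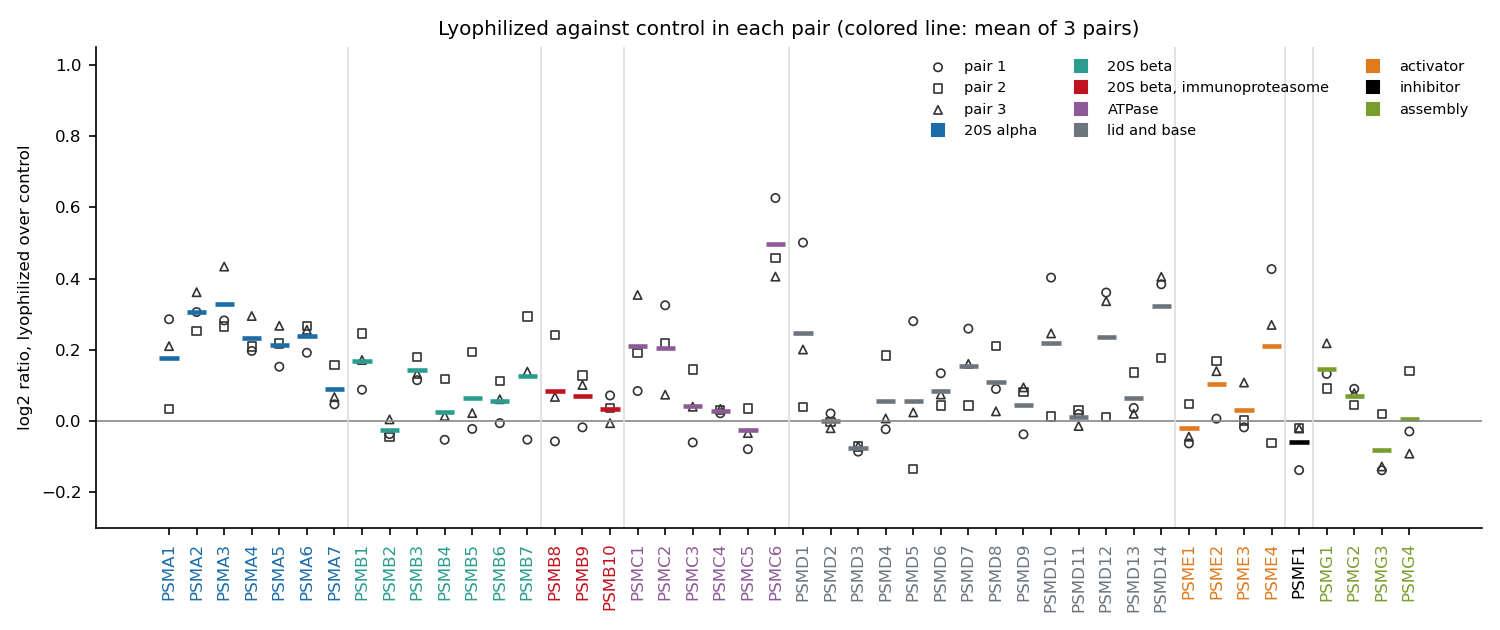
Log2 ratio of lyophilized over control, on FPKM plus 0.1, for each of the 46 tested proteasome genes in pairs 1, 2 and 3 (symbols), with the mean of the 3 pairs as a line colored by class. PSMC6 lies highest, at a mean of 0.50, and all 7 tested alpha subunits lie above 0 in every pair. The median is 0.07 over the immunoproteasome subunits, over the constitutive beta subunits and over the activators.

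The pattern over the members moved with the base composition of their transcripts. The GC content of the canonical transcript ran from 36.4% (PSMC6) to 61.7% (PSMB10). Across the 46 genes, Spearman's rho between GC content and the log2 fold change was -0.67, and it was -0.74, -0.08 and -0.69 within pairs 1, 2 and 3. Over 10993 genes the same values were -0.76, and -0.73, -0.42 and -0.77. These correlations are across genes measured in the same libraries and are given as a description. The 10 members called with the block that were not called after the correction below had 36.4% to 44.1% GC.

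When a smooth curve over GC content was subtracted in each sample, 15 members were higher and 0 lower with the block (limma, adjusted p under 0.05), beside 8.78% of all genes higher and 6.45% lower. This was 32.6% of the members, but they were largely other genes. PSMB1, PSMB3 and PSMD14 were called in both fits, which is 23.1% of the calls before the correction and 20% of those after it. The 12 that were called only after it had 48.6% to 61.7% GC: PSMA7, PSMB5, PSMB6, PSMB8, PSMB9, PSMB10, PSMC1, PSMC3, PSMD4, PSMD8, PSMD13 and PSME2. All 3 immunoproteasome subunits were among them, with corrected log2 fold changes of 0.23 (PSMB8), 0.18 (PSMB9) and 0.30 (PSMB10), where the uncorrected values were 0.08, 0.07 and 0.03. PSMC6 went from 0.50 to 0.19, with an adjusted p from limma of 0.0834. PSMA3 went to 0.11 (adjusted p 0.177), PSMA2 to 0.07 (0.349) and PSMD14 to 0.16 (0.0408). Of the members called before the correction, PSMA1, PSMA5, PSMC2 and PSMD12 turned to -0.01, -0.06, -0.05 and -0.05, and 13 of the 46 changed sign in all. The shares of all genes called in both fits, or changing sign, are not given here. After the correction Spearman's rho between GC content and fold change over the members was 0.66. With length corrected as well, 2 members were called, PSMC1 and PSMD8, both higher, beside 3.83% of all genes higher and 3.64% lower.

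The medians by GC class show the members beside all genes. Among transcripts of at most 40% GC, the median log2 fold change was 0.24 over 5 members and 0.29 over 1912 genes. Between 50% and 55% GC it was 0.06 over 15 members and -0.07 over 1654 genes, and between 55% and 60% GC it was 0.04 over 5 members and -0.15 over 1727 genes. What sets the relation with GC content was not tested.

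Coding sequences of members with low and high GC content are shown to make the contrast visible. Each is the first 120 bases of the longest coding exon, read from GRCh37 in the direction of transcription, with G and C in capitals. PSMC6 (exon 9, chr14:53184947-53185066, plus strand, 33.3% GC in this stretch) and PSMD12 (exon 11, chr17:65337049-65337168, minus strand, 36.7%) were called only before the correction. PSMB10 (exon 7, chr16:67968732-67968851, minus strand, 65.8%) and PSMD8 (exon 1, chr19:38865242-38865361, plus strand, 72.5%) were called only after it. Over the whole transcripts, which the correction used, GC content was 36.4% (PSMC6), 37.5% (PSMD12), 61.7% (PSMB10) and 57.4% (PSMD8).
PSMC6: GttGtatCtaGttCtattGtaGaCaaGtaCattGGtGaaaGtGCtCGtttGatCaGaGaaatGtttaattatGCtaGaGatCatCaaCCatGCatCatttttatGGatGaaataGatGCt
PSMD12: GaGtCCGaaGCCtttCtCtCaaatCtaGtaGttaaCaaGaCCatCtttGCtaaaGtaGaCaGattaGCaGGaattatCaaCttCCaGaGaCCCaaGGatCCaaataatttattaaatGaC
PSMB10: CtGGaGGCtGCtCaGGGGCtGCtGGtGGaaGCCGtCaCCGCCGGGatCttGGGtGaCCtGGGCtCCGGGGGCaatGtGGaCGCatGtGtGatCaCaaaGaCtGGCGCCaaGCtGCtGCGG
PSMD8: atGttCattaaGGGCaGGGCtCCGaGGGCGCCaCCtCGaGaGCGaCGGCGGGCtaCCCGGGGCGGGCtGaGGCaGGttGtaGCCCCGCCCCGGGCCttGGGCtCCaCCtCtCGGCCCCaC

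**Figure D4:**
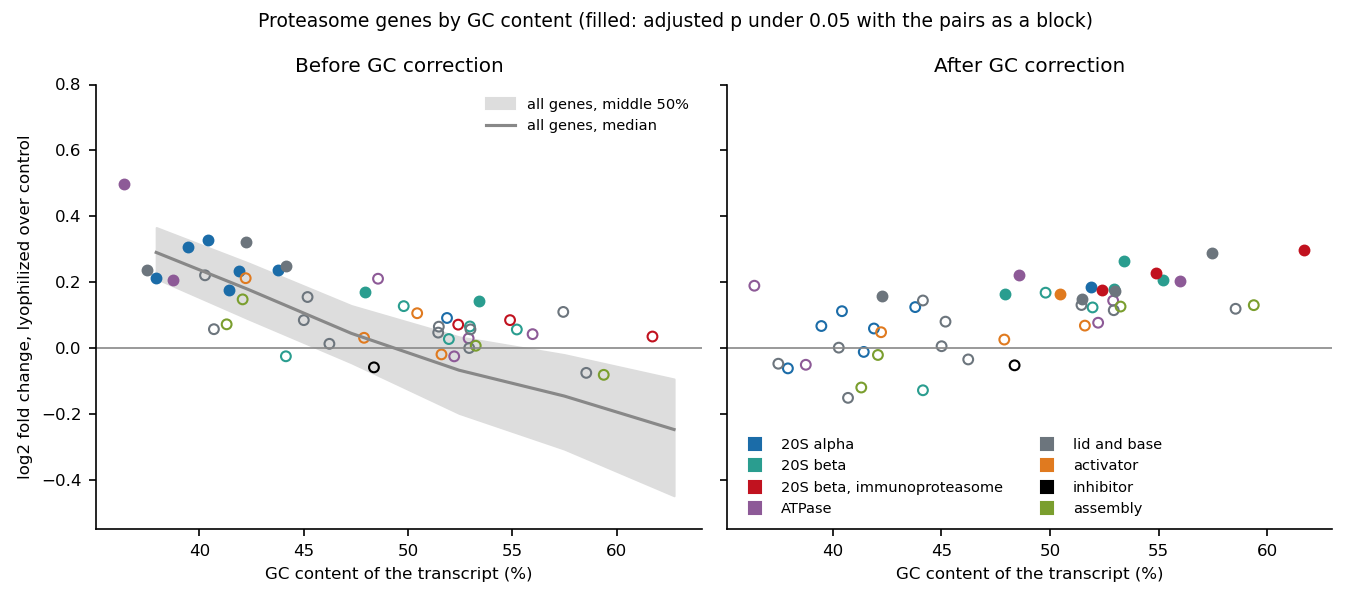
Log2 fold change (lyophilized over control) of the 46 tested proteasome genes against the GC content of their transcripts in percent, before and after the GC correction, with filled symbols for an adjusted p under 0.05 with the pairs as a block and color for the class. The gray line and band in the left panel are the median and middle 50% of all genes tested. Filled symbols sit mainly at low GC before the correction and at high GC after it.

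Levels also differed between the pairs. Pair 2 was the highest pair in both groups for 41 of the 46 genes, or 89.1%, against 25.2% of all genes. The full order of pair 2, then pair 3, then pair 1 was found in both groups for 34 members, or 73.9%, against 20.1% of all genes. After each sample was scaled to the same median, 20 members, or 43.5%, kept that order in both groups, against 14.9% of all genes. A test of the pair terms in the same model called 39 members, or 84.8%, against 45.2% of all genes (limma, F test, adjusted p under 0.05). The median log2 difference of pair 2 over pair 1 was 0.45 over the members and 0.11 over all genes tested. This comparison was chosen after the values had been seen. What distinguished the cultures of the pairs is not given in the sources used here, and the part of depth or culture state in it was not tested.

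By class, the median log2 difference of pair 2 over pair 1 was 0.65 over the ATPases, 0.51 over the PSMD genes, 0.45 over the alpha subunits, 0.37 over the constitutive beta subunits and 0.02 over the immunoproteasome subunits. PSMD1, whose values are given above, had the largest difference, 1.20, and its mean in the highest pair was 2.27 times that in the lowest. PSMG1 followed at 0.97, with 39.0, 77.4 and 56.3 FPKM in controls 1 to 3, against 42.8, 82.5 and 65.5 FPKM in lyophilized samples 1 to 3. For PSMG1 the order of the pairs was thus the same in both groups, and neither pair 1 sample reached the level of any sample of pairs 2 and 3.

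The exceptions included the whole immunoproteasome class. Pair 2 was not the highest in both groups for PSMB8, PSMB9, PSMB10, PSME1 and PSME4. The pair terms were not called for PSMB8, PSMB9, PSMD9, PSME1, PSME4, PSMF1 and PSMG2. For PSMB10 they were called, with an adjusted p from limma of 0.0141, but pair 3 was low rather than pair 1. Among the constitutive beta subunits, pair 3 was also the lowest on average for PSMB4, PSMB5 and PSMB7. Pair 1 was the lowest for PSMB1, PSMB2, PSMB3 and PSMB6. With the GC correction the exceptions were fewer. Pair 2 was then highest in both groups for 43 members, and the pair terms were called for 42, beside 28.9% and 52.7% of all genes. Whether these genes differ from the other members in their pair differences was not tested. PSME1 was 2.48, 1.77 and 2.03 times its partner PSME2 in controls 1 to 3, against 2.37, 1.62 and 1.78 times in lyophilized samples 1 to 3. All 48 genes together held 0.842%, 1.13% and 0.946% of the total FPKM in controls 1 to 3, against 0.851%, 1.17% and 0.977% in lyophilized samples 1 to 3.

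**Figure D5:**
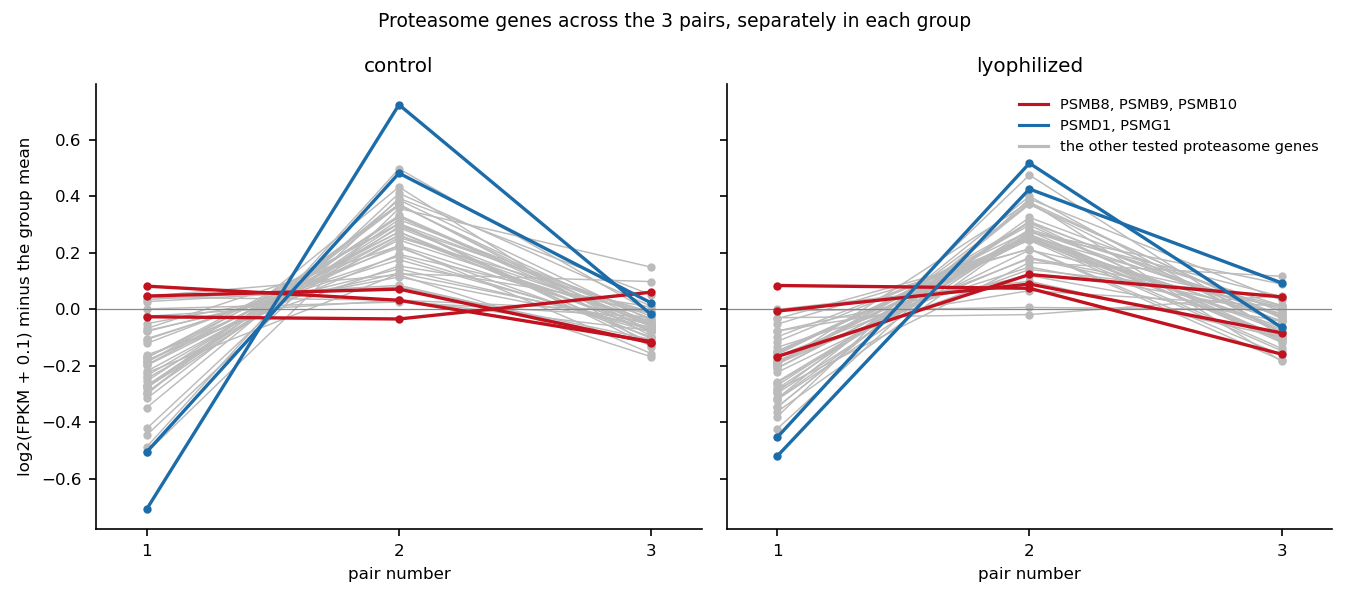
Log2(FPKM + 0.1) of each of the 46 tested proteasome genes minus its mean in the group, by pair number, for the controls and for the lyophilized samples (1 line per gene). Pair 2 lies highest for 41 genes in both groups, with PSMD1 and PSMG1 (blue) the widest, while PSMB8, PSMB9 and PSMB10 (red) stay between -0.17 and 0.12.

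The promoters of the members were also read for short sequences bound by known regulators. Whether a match goes with the differences between pairs was not tested. The 250 bases before the transcription start were available from RefSeq (GRCh38.p14) for 42 of the 48 genes, not for PSMA7, PSMB1, PSMB6, PSMB7, PSMD4 and PSMG3, and both strands were searched. Where a gene had several starts, the first listed was read. TGACNNNGC, the core of the antioxidant response element that NRF1 and NRF2 bind, occurred in 11 of 42 promoters (26.2%), against 11.0% of 27305 promoters. GAAANNGAA, most of the interferon-stimulated response element, occurred in 5 (11.9%), against 7.06%. TTCNNNGAA, the gamma-activated site, occurred in 5 (11.9%), against 6.78%. CCAAT occurred in 18 (42.9%), against 33.0%. A match is a description of the letters and no evidence of binding in these cells.

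The 150 bases before the start are printed for the genes with the widest pair differences, PSMD1 and PSMG1, and for PSMB9, PSMB10 and PSME2, whose products belong to the interferon-inducible proteasome. Matches to the 4 motifs are in capitals. PSMB10 and PSME2 share the match GAAAGCGAA close to the start, which PSMG4, an assembly chaperone, holds as well. PSMB8 held no match to the 4 motifs in the first of its 2 listed promoters and 1 match to TTCNNNGAA in the other. PSMB9 holds a match to TGACNNNGC on the reverse strand, and PSMD1 and PSMG1 hold none in this window. The coordinates are chr2:231056717-231056866 (plus strand) for PSMD1, chr21:39183452-39183601 (minus) for PSMG1, chr6:32854042-32854191 (plus) for PSMB9, chr16:67936851-67937000 (minus) for PSMB10 and chr14:24146611-24146760 (minus) for PSME2.
PSMD1: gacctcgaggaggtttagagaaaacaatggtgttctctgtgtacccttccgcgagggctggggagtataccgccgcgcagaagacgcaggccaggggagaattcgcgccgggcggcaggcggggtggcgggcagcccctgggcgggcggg
PSMG1: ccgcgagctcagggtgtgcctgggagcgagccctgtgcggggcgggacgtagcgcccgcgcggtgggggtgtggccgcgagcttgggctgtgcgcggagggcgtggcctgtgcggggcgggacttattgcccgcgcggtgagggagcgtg
PSMB9: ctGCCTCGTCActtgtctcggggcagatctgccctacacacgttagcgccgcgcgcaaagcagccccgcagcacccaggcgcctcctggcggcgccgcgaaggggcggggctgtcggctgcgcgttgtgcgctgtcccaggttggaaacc
PSMB10: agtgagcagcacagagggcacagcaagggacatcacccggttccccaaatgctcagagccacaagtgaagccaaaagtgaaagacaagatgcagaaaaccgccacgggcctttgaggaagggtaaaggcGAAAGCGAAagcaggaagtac
PSME2: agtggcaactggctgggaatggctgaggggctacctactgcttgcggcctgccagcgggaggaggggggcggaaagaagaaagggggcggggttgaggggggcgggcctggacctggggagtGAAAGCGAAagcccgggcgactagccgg

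The wider ubiquitin-proteasome pathway was followed in 38 partner genes outside these symbols, of which 37 were tested. With the condition alone, 0 of 37 passed (limma), and 4 had an unadjusted p under 0.05, again beside 14.1% of all genes. With the pairs as a block, 7 were higher and 5 lower, again beside 15.9% and 14.9% of all genes. Those higher were POMP, the chaperone of core maturation, SHFM1, the small cap subunit also named SEM1, UCHL5, a deubiquitinase of the cap, RPS27A, a ubiquitin fusion gene, UBA6, a ubiquitin-activating enzyme, and NFE2L2 and NGLY1, which act in the transcriptional control of proteasome genes. POMP went from 87.0 FPKM in the control mean to 114 FPKM, a log2 fold change of 0.40, and SHFM1 from 164 to 210 FPKM, a log2 fold change of 0.35.

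Those lower included TAPBP and TAP2, which load and transport peptides for MHC class I, UBA1, the main ubiquitin-activating enzyme, and AKIRIN2, which brings proteasomes into the nucleus. TAPBP fell from a mean of 63.97 to 43.8 FPKM, a log2 fold change of -0.54. After the GC correction, 5 of 37 partners were higher and 2 lower, beside 8.78% of all genes higher and 6.45% lower. Of the 7 higher before it, SHFM1 alone remained so, at 0.18, while POMP was at 0.03 with an adjusted p from limma of 0.595. TAPBP and TAP2 remained lower, and ADRM1 and UBB were among those called higher there only. The GC content of POMP was 33.1%, that of TAPBP 57.1% and that of TAP2 48.9%. TAPBP was at -0.37 after the correction, and TAP2 went from -0.23 to -0.21. The part of GC content in these changes was not tested.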

How the data were processed

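Poly(A)-selected RNA of 3 control and 3 lyophilized samples was sequenced single-end. The authors aligned the reads to hg19 (GRCh37) with TopHat 2.0.7, kept reads mapping to 1 position and deposited FPKM values from Cufflinks, whose version and gene annotation are not given in the sources used here. CASAVA 1.4 is also named in the submitters' processing notes. The tables held 24934 records and no read counts, so no counting interval was computed.

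From these values, 1 record per symbol was kept, small RNAs were dropped, and genes whose mean was over 1 FPKM in either group entered limma 3.58.1 (R 4.3.3), on log2(FPKM + 0.1) with a variance trend and Benjamini-Hochberg adjustment at 0.05. Fold changes on this scale understate those of low genes. The study's own test was unpaired, and so was the first model here. The study lists the samples as pairs, matched here by replicate number. Deviations of paired samples from their group means correlated at r = 0.716, 0.603 and 0.476 over all genes tested for pairs 1, 2 and 3, and a second model had the pair as a block. Correction for GC content, and for GC content and log2 length together, used loess (span 0.3, degree 2) in each sample, over Ensembl canonical transcripts of GENCODE v44 on GRCh37. The build of the records was checked by locus, and all 48 members overlapped the gene of their symbol. Stretches of 75 bases were searched over the genome, leaving out 10000 bases around each gene. Ratios were tested by exact permutation.

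Data were simulated for 11134 genes, 200 of them changed by 0.5, 1 or 1.5 on the log2 scale. The unpaired model recovered 5.97%, 61.2% and 78.8% of these, and the blocked model 11.9%, 70.1% and 78.8%. Of their calls, 0% and 5.31% were false. The simulated noise was independent between genes and held no relation to GC content, unlike the real values. Every gene was also given the same share of its spread in common within a pair, which was not fitted to the members. The simulated percentages therefore do not give the share of false calls among the genes called above. Nor do they give the recovery of the blocked model for the members. The members, the partner list and the tests were chosen with earlier results of these data known. All members may be named, and values in all samples are given for the catalytic and immunoproteasome subunits, PSMA8, PSMB11, the activators, the inhibitor, the 5 members of largest fold change and those of highest and lowest mean, and also for PSMG1 and PSMG2, which were chosen after their values were seen. Protein sequences were not analysed here. Values of some partner genes are not reported here. The interferon-stimulated motif was shortened after a longer form had been counted. Software was Python 3.11.15 with matplotlib 3.10.9, scipy 1.17.1, pandas 2.3.3 and numpy 2.4.6. Alternatives covered the pseudocount, filter, scaling, trend, block, corrections, records summed per symbol and each sample left out.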

Additional observations from a re-analysis of the deposited data

How the results depend on the processing

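The tables hold no read counts, so the counting error of single values was not computed, and with 3 samples a group, differences of the size seen in these genes are mostly below what the unpaired model recovers. No proteasome or partner gene was called under any unpaired setting tried. Without the filter, with the GC correction and with each sample left out, no gene at all was called in the unpaired model. In its other settings at most 0.0359% of all genes were called higher and 0.71% lower. The replicate block gave 13 proteasome genes higher (10, 18 and 5 without pairs 1, 2 and 3), 7 partners higher and 5 lower (4 and 4, 13 and 7, and 4 and 1 without those pairs). Without pairs 1, 2 and 3, 9.03%, 27.7% and 4.26% of all genes were higher and 10.8%, 20.1% and 7.04% lower. With the GC correction, 15 proteasome genes and 5 partners were higher and 2 partners lower, beside 8.78% of all genes higher and 6.45% lower. With GC and length these counts were 2, 3 and 1, beside 3.83% and 3.64%. Chosen after seeing the data, the block with median scaling gave 12, 7 and 5, beside 17.3% of all genes higher and 15.7% lower, and with quantile normalization 8 proteasome genes higher, 1 lower (PSME1), and 7 and 5 partners, beside 15.6% and 15.9%. The order of pairs 2, 3, 1 in both groups was found for 20 members after median scaling, against 34. The cause was not tested.
Median log2 fold change of the members ranged from -0.02 to 0.21 with each sample left out. Among the genes with values given in every sample, quantile normalization turned PSMB8 (-0.000105), PSMB9 (-0.00383) and PSMB10 (-0.0576), the GC correction turned PSME1 (0.0679), PSMD5 (-0.15), PSMG1 (-0.02) and PSMG2 (-0.12), and GC and length turned PSMD5 (-0.15), PSMF1 (0.0215), PSMG1 (-0.03) and PSMG2 (-0.11). Over all 46 members, GC turned 13 and GC and length 15, of which 4 each (PSMA1, PSMA5, PSMC2 and PSMD12) had been called with the block. The shares of all genes that turned are not given here. With each sample left out, PSMB5 ran from -0.0420 to 0.146, PSMB6 from -0.0489 to 0.168, PSMB10 from -0.0246 to 0.114, PSME1 from -0.0693 to 0.0299, PSME2 from -0.0574 to 0.264, PSME3 from -0.11 to 0.19, PSMD1 from -0.11 to 0.61, PSMC6 from 0.29 to 0.70, PSMA3 from 0.14 to 0.54, PSMD14 from 0.19 to 0.49, PSMA2 from 0.22 to 0.40 and PSMD5 from -0.20 to 0.24, and the log2 ratio differences ran from -0.0840 to 0.109 (PSMB8/PSMB5), -0.0939 to 0.137 (PSMB9/PSMB6) and -0.210 to -0.0063 (PSMB10/PSMB7).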
